A study of Homo sapiens with 6 samples.

Results

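Ribosome biogenesis genes encode the factors that transcribe ribosomal RNA, trim and modify it, and assemble it with ribosomal proteins into subunits. The 56 genes described here were chosen by symbol from the read count table. They were 56 of its 29744 genes, and all 56 passed the filter on low counts, among 14192 genes tested. They were sorted by role into 6 for RNA polymerase I transcription, 6 core proteins of small nucleolar ribonucleoproteins (snoRNPs), 4 abundant nucleolar proteins, 13 of the small subunit processome, 8 of pre-40S maturation and 19 of large subunit assembly. The pathway runs in the nucleolus and takes up much of the transcription of a growing cell. In cancer cells it is known as a target of the growth-promoting transcription factor MYC, and nucleoli are often enlarged in tumours.

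Messenger RNA was sequenced in 6 libraries of the human breast cancer line MDA-MB-231, a mesenchymal-like line that lacks the oestrogen receptor. The shEZH2 line (2 libraries) combined knockout of PARP1, the main poly(ADP-ribose) polymerase, with a short hairpin RNA (shRNA) that depletes EZH2. The shSUZ12 line (2 libraries) also carried a PARP1 knockout, with an shRNA that depletes SUZ12. Control cells (2 libraries) were labelled WT and carried a nontargeting shRNA. Polycomb repressive complex 2 methylates histone H3, with EZH2 as its catalytic subunit and SUZ12 as a core partner. All groups were MDA-MB-231 at passage 5 to 10, grown for 2 days in medium with serum. A line with PARP1 knockout and a control hairpin, or with either hairpin and intact PARP1, was not analysed here. The labels do not say whether the knockout is 1 clone or whether libraries came from separate cultures.

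Gene counts ranged from 20135270 to 22782742 per library. The lowest count of a ribosome biogenesis gene in any library was 90, so depth limited none of the levels below. Levels are given as CPM, the count scaled to a common library size. PARP1 had 33.6 and 28.6 CPM in the shEZH2 line, 28.7 and 26.6 CPM in the shSUZ12 line and 425 and 361 CPM in control. EZH2 showed 53.1 and 63.5 CPM in the shEZH2 line, against 199 and 188 CPM in control (adjusted p = 0.00539 by edgeR). SUZ12 showed 76.1 and 70.3 CPM in the shSUZ12 line, against 134 and 133 CPM in control, a log2 fold change of -0.87 ± 0.37 that did not pass the test (adjusted p = 0.377 by edgeR). The shEZH2 libraries differed in SUZ12, at 130 and 53.1 CPM. Of 12 marker genes of MDA-MB-231 cells, 11 exceeded 10 CPM in every library, and SPARC did not. Of marker genes of other cell types, ESR1 (luminal), CD3E (blood), COL3A1 (fibroblast) and CDH5 (endothelial) had 0 counts throughout, while ERBB2, GATA3 and KRT19 (luminal), CD68 (blood) and COL1A1 (fibroblast) exceeded 10 CPM in every library. In the shEZH2 line against control FOXA1, CD14, LUM and PECAM1 were called higher, and EPCAM, COL1A2, KDR and the MDA-MB-231 marker AXL lower. Other than AXL, none of these 8 exceeded 16.4 CPM in any library. The summed CPM of the blood cell markers, nearly all of it CD68, was 108 and 118 in the shEZH2 line, 87.0 and 81.1 in the shSUZ12 line and 95.0 and 89.7 in control, and its part in the results was not tested. In such bulk RNA a change in the number of cells of a kind and a change in RNA per cell cannot be told apart.

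The 2 shEZH2 libraries were unlike each other, with 15.3% of all tested genes over 2-fold apart, against 1.61% in the shSUZ12 line and 3.24% in control. Among ribosome biogenesis genes 5 of 56 were over 2-fold apart in the shEZH2 line (DDX21, HEATR1, POLR1A, POLR1B and UTP20), and 0 in the shSUZ12 line and in control. The control replicates differed in another way. Of the 56 genes, 54 were higher in control replicate 1 than in replicate 2, by a median of 0.26 on the log2 scale.

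Levels of different genes are compared per kilobase of longest annotated transcript, which may not be the transcript these cells use. NPM1, the histone-binding protein nucleophosmin, led with 962, 721 and 789 CPM per kilobase in the shEZH2, shSUZ12 and control cells. NCL, which encodes nucleolin, had 348, 265 and 303 CPM per kilobase. In the shEZH2 line EBNA1BP2, a large subunit factor, stood beside it with 365 CPM per kilobase, against 149 in shSUZ12 and 154 in control cells. PPAN, a large subunit processing factor, was lowest in all 3 groups, with 7.22, 2.94 and 3.34 CPM per kilobase.

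The first comparison, of the shEZH2 line with control, asks what changes when PARP1 and EZH2 are both depleted. Of the 56 ribosome biogenesis genes, 9 rose, 0 fell and 47 did not pass the test (adjusted p under 0.05 by the quasi-likelihood test of edgeR, Benjamini-Hochberg adjustment over all tested genes, n = 2 per group). At an unadjusted p under 0.05, 26 were higher and 1, DDX10, was lower, and DESeq2 called 20 higher and 0 lower. Across all tested genes 3.54% rose and 3.2% fell by edgeR. At an unadjusted p under 0.05, 1960 of the 14192 were higher and 1839 lower, and DESeq2 called 7.14% higher and 5.82% lower. The median log2 fold change of the 56 genes was 0.48, against -0.01 over all tested genes, and 50 of the 56 lay above 0. Both shEZH2 libraries lay above both control libraries for 41 of 56 genes, against 26.3% of all tested genes. The median over the 56 genes was 0.54 above the control mean in shEZH2 replicate 1 and 0.49 in replicate 2, while the control replicates stood at 0.13 and -0.13.

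Of the 9 risen genes, 6 belonged to large subunit assembly, which had 19 genes. FTSJ3, whose yeast counterpart is an RNA methyltransferase of the large subunit precursor, had 475 and 479 CPM in the shEZH2 line, 227 and 232 CPM in the shSUZ12 line and 198 and 164 CPM in control. It rose by 1.40 ± 0.17 (SE) on the log2 scale over control (adjusted p = 0.00775 by edgeR). The 2 shEZH2 libraries were almost level and lay above the other 4.

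NOC2L, the human relative of a yeast large subunit factor and also known as an inhibitor of histone acetylation, had 411 and 364 CPM in the shEZH2 line, 167 and 192 CPM in the shSUZ12 line and 158 and 139 CPM in control. It rose by 1.38 ± 0.18 over control (adjusted p = 0.00945 by edgeR). Again the shEZH2 libraries stood clear of all others.

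EBNA1BP2, whose yeast counterpart Ebp2 acts in large subunit assembly, had 479 and 620 CPM in the shEZH2 line, 214 and 233 CPM in the shSUZ12 line and 258 and 207 CPM in control. It rose by 1.24 ± 0.20 over control (adjusted p = 0.0186 by edgeR). NOP16, a nucleolar protein of the same branch, had 163 and 208 CPM in the shEZH2 line, 67.1 and 76.2 CPM in the shSUZ12 line and 94.1 and 68.1 CPM in control. For both genes the shEZH2 groups did not overlap with the others, and the shSUZ12 and control groups did overlap.

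NOP16 rose by 1.19 ± 0.23 over control (adjusted p = 0.0272 by edgeR). PPAN was the scarcest of the risen genes, with 10.8 and 13.1 CPM in the shEZH2 line, 4.02 and 5.72 CPM in the shSUZ12 line and 5.45 and 5.61 CPM in control, and rose by 1.11 ± 0.27 (adjusted p = 0.0494 by edgeR). RPF2, which with RRS1 brings the 5S ribonucleoprotein to the large subunit in yeast, had 126 and 110 CPM in the shEZH2 line, 68.5 and 67.4 CPM in the shSUZ12 line and 71.6 and 58.6 CPM in control. Its rise was 0.85 ± 0.19 (adjusted p = 0.0398 by edgeR). In PPAN and RPF2 too, every shEZH2 library exceeded every other library.

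The other 3 risen genes belonged to 3 other roles. RRP12, a HEAT-repeat protein known from yeast to help export pre-ribosomes, rose most of all 56, by 1.49 ± 0.19 (adjusted p = 0.00885 by edgeR). It had 279 and 258 CPM in the shEZH2 line, 108 and 129 CPM in the shSUZ12 line and 105 and 86.6 CPM in control. TCOF1 encodes treacle, a nucleolar partner of RNA polymerase I that is mutated in Treacher Collins syndrome. It had 483 and 410 CPM in the shEZH2 line, 236 and 263 CPM in the shSUZ12 line and 245 and 223 CPM in control, and rose by 0.93 ± 0.18 (adjusted p = 0.0266 by edgeR).

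UTP14A, a small subunit processome protein, rose by 0.94 ± 0.19 (adjusted p = 0.0322 by edgeR). It had 185 and 165 CPM in the shEZH2 line, 96.6 and 105 CPM in the shSUZ12 line and 102 and 80.8 CPM in control. The plot of CPM by library shows the same arrangement for all 9 genes, with the shEZH2 pair above the other 4 libraries. These genes were chosen by a test of the same shEZH2 and control values, so their separation from control is no further support. The share of all tested genes with this arrangement was not counted.

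**Figure D1:**
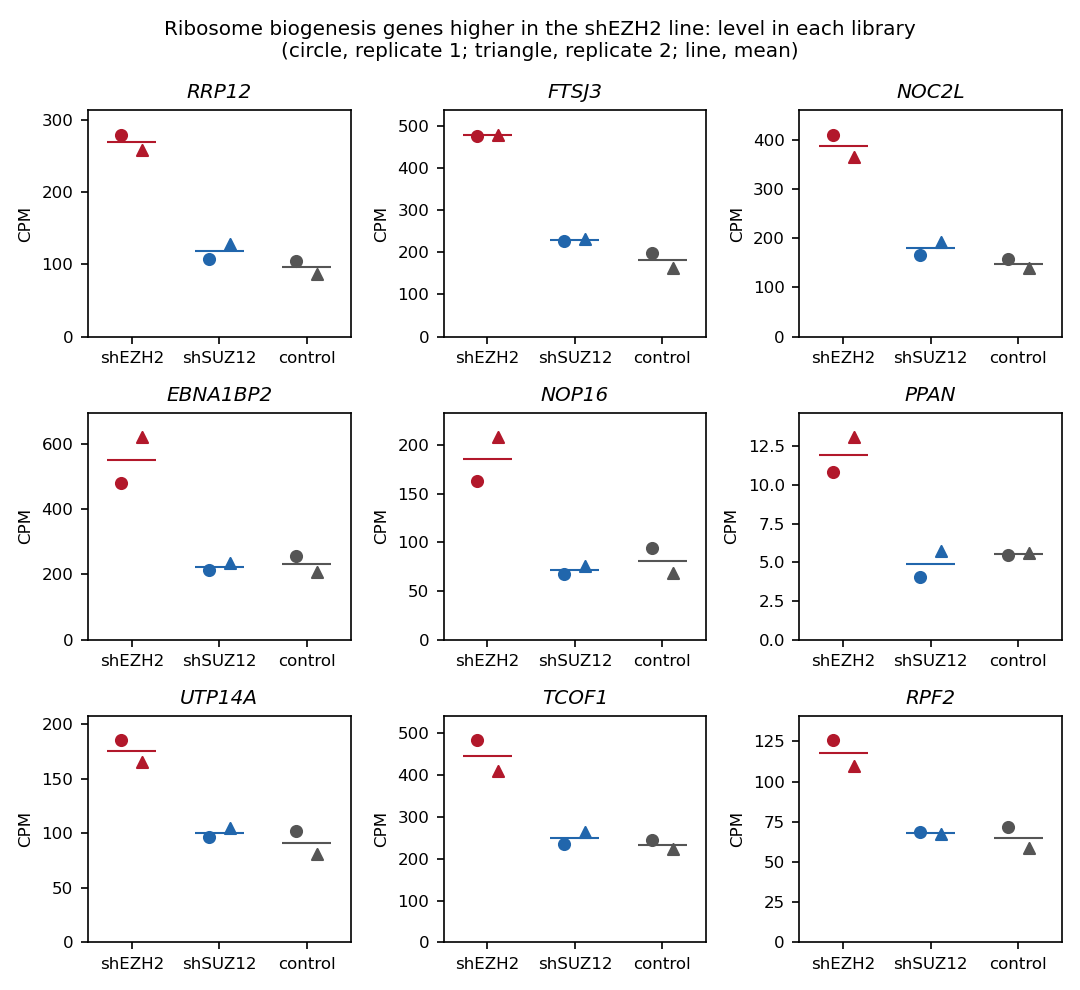
Level (CPM, linear axis from 0) of the 9 ribosome biogenesis genes that rose in the shEZH2 line, by line, with circles for replicate 1, triangles for replicate 2 and lines for the mean of 2 libraries. In each panel both shEZH2 libraries lie above the 4 shSUZ12 and control libraries, as for FTSJ3 with 475 and 479 CPM against at most 232 CPM. The genes were chosen by a test of these same shEZH2 and control values.

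The risen genes lie on several chromosomes (GENCODE version 29, GRCh38). NOC2L is at chr1:944204-959309 and EBNA1BP2 at chr1:43164175-43270936, both on the minus strand. TCOF1 is at chr5:150357629-150400308 on the plus strand and NOP16 at chr5:176383938-176388975 on the minus strand. RPF2 (chr6:110982015-111028263, plus), RRP12 (chr10:97356358-97426076, minus) and FTSJ3 (chr17:63819433-63830012, minus) follow. PPAN (chr19:10106289-10111634, plus) and UTP14A (chrX:129906121-129929761, plus) complete the set. They are thus spread over 7 chromosomes.

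Some of these genes share exonic bases with a neighbour on the opposite strand, and the strand setting of the counting is not given in the sources used here. FTSJ3 overlaps PSMC5, a proteasome gene, which had 361 and 566 CPM in the shEZH2 line against 269 and 255 CPM in control, a log2 fold change of 0.83 ± 0.23 that did not pass the test (adjusted p = 0.0739 by edgeR). NOP16 overlaps HIGD2A, with 72.1 and 128 CPM in the shEZH2 line against 68.0 and 65.8 CPM in control. NOP16 also overlaps ARL10, NOC2L overlaps SAMD11 and EBNA1BP2 overlaps CFAP57. PPAN shares exons with P2RY11 and a readthrough transcript on its own strand, which a strand setting would not separate. TCOF1 and RPF2 had no such neighbour. Whether shared reads played a part in these rises was not tested.

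Promoter sequence was examined because both shEZH2 libraries exceeded control for 41 of the 56 genes and because MYC is known to bind the E-box CACGTG. RefSeq promoter windows (GRCh38.p14, 250 bases before to 50 after a gene's start) matched 47 of the 56 genes. The palindromic E-box CACGTG, which reads the same on both strands, was present for 19 of the 47, or 40.4%. It was present for 12.3% of 10048 tested genes with a window and for 8.77% of all genes in the promoter table. Among cytosolic ribosomal protein genes it was present for 4 of 63. These shares are counts with no test. It was present for 2 of 6 risen genes with a window and for 17 of 41 genes that did not pass the test.

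To show where the E-box lies, sites are given for the risen EBNA1BP2 and UTP14A and for RRP9, NAT10, FBL and PES1, which did not pass the test, with the E-box in capitals and the strand of the gene read 5′ to 3′. Positions count from the gene's start, which is 1, and the base before it is -1.
EBNA1BP2 (chr1:43172790-43172819, minus, first E-box base at -237): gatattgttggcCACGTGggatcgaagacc
UTP14A (chrX:129905914-129905943, plus, -241): accttgggcCACGTGgaaaccaggggccag
RRP9 (chr3:51941892-51941921, minus, -5): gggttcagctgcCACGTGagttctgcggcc
NAT10 (chr11:34105602-34105631, plus, -15): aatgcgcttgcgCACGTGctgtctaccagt
FBL (chr19:39846356-39846385, minus, 7): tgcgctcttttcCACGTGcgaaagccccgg
PES1 (chr22:30591880-30591909, minus, 14): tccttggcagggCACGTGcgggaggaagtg
In RRP9, NAT10, FBL and PES1 the site lay close to the start, whereas in EBNA1BP2 and UTP14A it lay near the far end of the window. EBNA1BP2 has a further annotated start, whose window holds an E-box at 43. A match describes these letters, not binding.

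A second motif, CCGGAAG, was searched on both strands after the windows of the risen genes had been read, so its choice is not independent of them. It is the core recognised by ETS-family transcription factors, which are known at many housekeeping promoters. It was present for 20 of the 47 genes, or 42.6%, against 21.8% of tested genes with a window and 34.9% of cytosolic ribosomal protein genes. It cannot overlap with the E-box. The sites of risen genes near a start were these, with CCGGAAG or its reverse complement in capitals.
NOC2L (chr1:959256-959285, minus, first motif base at -17): ggcattctggggCCGGAAGtggggtgcacg
NOP16 (chr5:176388600-176388629, minus, -19): ccttgtgcacgcCTTCCGGAAGgagtttgt
EBNA1BP2 (chr1:43172320-43172349, minus, -47): agcaacgacaaaCCGGAAGtatggtttgcc
PPAN (chr19:10106318-10106347, plus, -32): ggctctcaggcgCCGGAAGtgagctgcgca
The EBNA1BP2 site is counted from its further start. In NOP16 the motif and its reverse complement overlap. No window of FTSJ3 held either motif.

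MYC itself went the other way. MYC counts came to 45.6 and 65.9 CPM in the shEZH2 line, 99.6 and 86.8 CPM in the shSUZ12 line and 122 and 118 CPM in control. It fell by 1.11 ± 0.22 in the shEZH2 line (adjusted p = 0.0324 by edgeR), and the groups did not overlap. Without control replicate 1 or 2 the edgeR adjusted p was 0.234 and 0.232, without shSUZ12 replicate 1 or 2 it was 0.0960 and 0.0974, and in a fit on the shEZH2 and control libraries alone 0.0973. In the shSUZ12 line the log2 fold change of MYC was -0.36 ± 0.22 (adjusted p = 0.578 by edgeR). Whether its lower level is linked to the genes above was not tested.

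Among the genes of RNA polymerase I transcription, TCOF1 alone rose of 6, and 5 of 6 lay above 0 (median 0.48). POLR1A, the largest polymerase subunit, had 141 and 61.3 CPM in the shEZH2 line, 105 and 110 CPM in the shSUZ12 line and 136 and 114 CPM in control. Its log2 fold change over control was -0.31 ± 0.35, and the shEZH2 pair straddled all other libraries. POLR1B, the other large subunit of the enzyme's core, also split, at 150 and 73.0 CPM against 66.6 and 50.9 CPM in control. Its value was 0.92 ± 0.33 and did not pass the test (adjusted p = 0.126 by edgeR).

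POLR1C, a subunit shared with RNA polymerase III, had a log2 fold change of 0.60 ± 0.23. RRN3, which makes the polymerase ready to initiate, had 55.2 and 34.1 CPM in the shEZH2 line, 36.2 and 34.9 CPM in the shSUZ12 line and 37.2 and 32.5 CPM in control (0.36 ± 0.26 in the shEZH2 line). Pseudogenes of RRN3 are listed separately, and reads shared with them may be missing from its count. UBTF, the factor that binds ribosomal DNA, was nearly level in all libraries, with 154 and 173 CPM in the shEZH2 line, 141 and 150 CPM in the shSUZ12 line and 154 and 149 CPM in control (0.11 ± 0.17 in the shEZH2 line).

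The core snoRNP proteins guide methylation and pseudouridylation of ribosomal RNA, and 0 of 6 passed the test, with all 6 above 0 (median 0.46). At an unadjusted p under 0.05, 3 were higher, and DESeq2 called GAR1 and NHP2. NHP2 and GAR1, small proteins of the pseudouridylation particles, had the largest log2 fold changes, 0.92 ± 0.25 and 0.79 ± 0.20. NHP2 had 127 and 209 CPM in the shEZH2 line, against 93.2 and 84.5 CPM in control. DKC1, the pseudouridine synthase of the same particles, had 339 and 297 CPM in the shEZH2 line, against 296 and 251 CPM in control (0.22 ± 0.18).

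The methylation particles have 3 proteins here. FBL, their methyltransferase, had 256 and 436 CPM in the shEZH2 line, 234 and 234 CPM in the shSUZ12 line and 296 and 247 CPM in control (0.35 ± 0.26 in the shEZH2 line). Its shEZH2 pair spread across the control pair. NOP56 and NOP58, paired scaffold proteins, were at 281 and 356 CPM and at 131 and 145 CPM in the shEZH2 line, against 252 and 221 CPM and 104 and 92.4 CPM in control. Their log2 fold changes were 0.43 ± 0.19 and 0.49 ± 0.17. Both lay above control in each shEZH2 library, as did 26.3% of all tested genes, without passing the test.

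The 4 abundant nucleolar proteins showed the smallest median of the 6 roles, 0.26, and 0 of 4 passed the test by edgeR or DESeq2 or at an unadjusted p under 0.05. NPM1 had 1706 and 1678 CPM in the shEZH2 line, 1283 and 1253 CPM in the shSUZ12 line and 1540 and 1235 CPM in control (0.29 ± 0.18 in the shEZH2 line). NCL had 1491 and 1314 CPM, 1076 and 1060 CPM and 1365 and 1077 CPM in the same order of groups (0.20 ± 0.19 in the shEZH2 line). The spread between the control replicates was of the size of these differences, and NPM1 has pseudogenes with which reads may be shared. DDX21, a nucleolar RNA helicase, had 825 and 316 CPM in the shEZH2 line, and NOLC1, a chaperone of snoRNPs, had 672 and 438 CPM. Control held 541 and 430 CPM of DDX21 and 503 and 392 CPM of NOLC1.

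In the small subunit processome, which makes the first cuts toward 18S ribosomal RNA, UTP14A rose and 12 of 13 did not pass the test (median 0.42, 10 of 13 above 0). WDR3 and RRP9, a WD-repeat protein and a protein of the U3 snoRNP, followed at 0.91 ± 0.28 and 0.71 ± 0.21. NOP14, a core protein of the processome, had 289 and 283 CPM in the shEZH2 line, 232 and 248 CPM in the shSUZ12 line and 212 and 195 CPM in control (0.49 ± 0.16 in the shEZH2 line). The scaffold genes HEATR1 and UTP20 had 170 and 53.1 CPM and 194 and 78.2 CPM in the shEZH2 line, on either side of their control levels. The other genes above 0 were NOC4L (0.47 ± 0.28), WDR75 (0.42 ± 0.18), the RNA acetyltransferase gene NAT10 (0.37 ± 0.18) and UTP18 (0.11 ± 0.18).

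DDX10, an RNA helicase gene, had the lowest value of the processome, and UTP15 and WDR43 also lay below 0 (-0.26 ± 0.23 and -0.02 ± 0.25). DDX10 had 59.7 and 53.9 CPM in the shEZH2 line, 42.8 and 43.5 CPM in the shSUZ12 line and 90.2 and 75.6 CPM in control. Its log2 fold change was -0.54 ± 0.18 in the shEZH2 line (adjusted p = 0.111 by edgeR) and -0.94 ± 0.19 in the shSUZ12 line (adjusted p = 0.0566 by edgeR). All depleted libraries lay below both control libraries, and the comparisons share those controls. DDX10 was the only one of the 56 genes with both shEZH2 libraries below both control libraries, an arrangement found for 28.1% of all tested genes.

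In pre-40S maturation, RRP12 rose and 7 of 8 did not pass the test (median 0.44, 7 of 8 above 0). LTV1, an export adaptor in yeast, had 102 and 111 CPM in the shEZH2 line, against 68.5 and 67.0 CPM in control (0.65 ± 0.17, adjusted p = 0.0597 by edgeR). TSR1, a GTPase-like placeholder on the precursor, had 262 and 171 CPM in the shEZH2 line, 148 and 163 CPM in the shSUZ12 line and 169 and 132 CPM in control (0.52 ± 0.24 in the shEZH2 line). NOB1, the endonuclease that makes the final cut of 18S ribosomal RNA, had a log2 fold change of 0.37 ± 0.20, BYSL of 0.39 ± 0.18, RIOK1 of 0.49 ± 0.18 and PNO1 of 0.28 ± 0.20. The kinase gene RIOK2 was the exception, with 43.8 and 44.2 CPM in the shEZH2 line, 45.3 and 47.1 CPM in the shSUZ12 line and 55.5 and 42.6 CPM in control (-0.16 ± 0.20 in the shEZH2 line).

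Large subunit assembly had the highest median of the roles, 0.67, with 18 of 19 genes above 0. PES1, BOP1 and WDR12 form the PeBoW complex, which acts in maturation of large subunit ribosomal RNA, and their log2 fold changes were 0.68 ± 0.21, 0.37 ± 0.21 and 0.71 ± 0.21. PES1 had 129 and 169 CPM in the shEZH2 line, against 99.7 and 85.6 CPM in control. BOP1 had 185 and 234 CPM in the shEZH2 line, 118 and 142 CPM in the shSUZ12 line and 180 and 144 CPM in control. All 3 genes had both shEZH2 libraries above both control libraries, an arrangement found for 26.3% of all tested genes. They did not pass the edgeR test, while DESeq2 called PES1 and WDR12 higher but not BOP1.

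The ribosomal RNA methyltransferase gene NOP2 had 249 and 270 CPM in the shEZH2 line, against 168 and 158 CPM in control (0.67 ± 0.17, adjusted p = 0.0598 by edgeR). MRTO4, a relative of the ribosomal stalk protein, had a log2 fold change of 0.73 ± 0.19 and BRIX1 one of 0.65 ± 0.18. The values of DDX56, NIP7, DDX18, NOC3L, RRS1 and GNL3 ran from 0.32 for GNL3 to 0.66 for DDX56. RRP1B was the only large subunit gene below 0, with 135 and 75.1 CPM in the shEZH2 line, 113 and 114 CPM in the shSUZ12 line and 142 and 115 CPM in control (-0.29 ± 0.28 in the shEZH2 line). The plot of fold changes by role shows the shEZH2 values to the right of 0 in 50 of 56 genes and the shSUZ12 values around it.

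**Figure D2:**
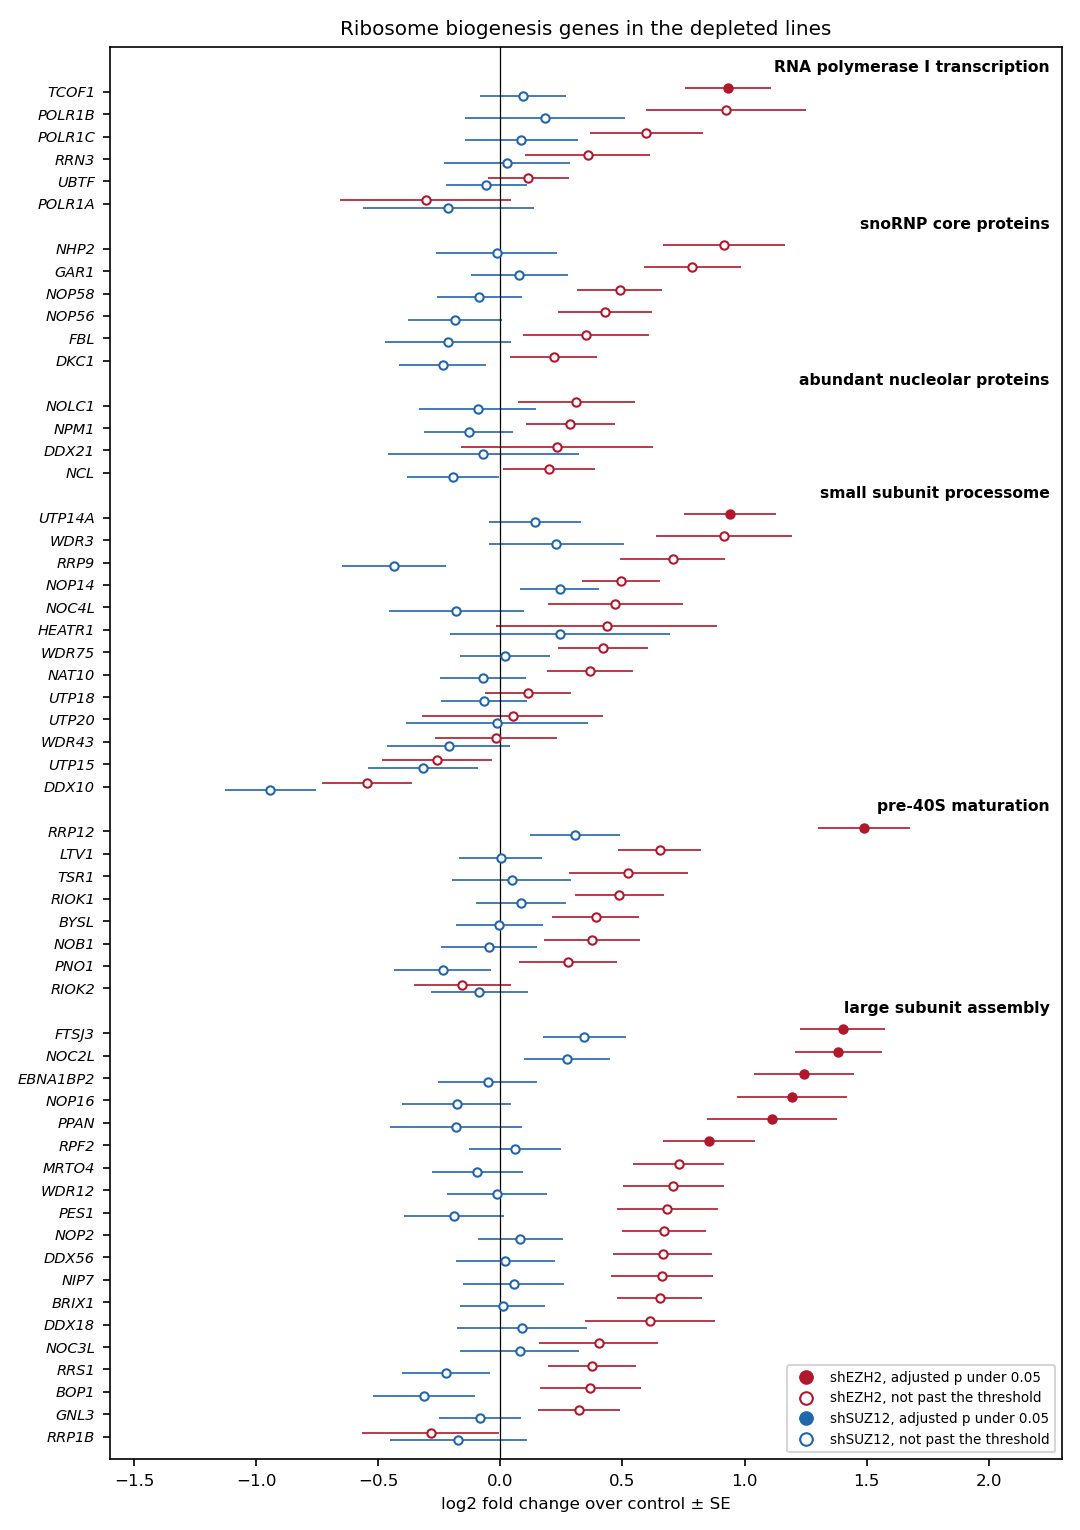
Log2 fold change over control (x axis, bars are SE from edgeR, n = 2 per group) of the 56 genes grouped by role, for the shEZH2 line (red, upper) and the shSUZ12 line (blue, lower), with filled symbols where the adjusted p was under 0.05. In the shEZH2 line 9 genes are filled, from 0.85 for RPF2 to 1.49 for RRP12, and in the shSUZ12 line none is.

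These calls depended on which libraries entered. A fit on the shEZH2 and control libraries alone called only FTSJ3, NOC2L and RRP12 higher, where 0.796% of 13816 genes were higher and 0.767% lower. Fits that leave 1 control or shSUZ12 library are given here by median only. Dropping control replicate 1 gave a median log2 fold change of 0.59, with 52 of the 56 genes above 0. Dropping control replicate 2 gave 0.36, with 48 above 0. The all-gene medians of those fits were -0.014 and 0.006. Dropping either shSUZ12 library gave 0.48 for the 56 genes. Without shEZH2 replicate 1 the median log2 fold change of the 56 genes was 0.48, with 45 genes above 0 and 11 below. Without shEZH2 replicate 2 it was 0.57, with 52 genes above 0 and 4 below. Over all tested genes these fits gave medians of -0.03 and 0.01. Each leaves a lone shEZH2 library, assumed to vary like the other groups.

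Transcript length moved with the difference between the shEZH2 replicates. The 56 genes had a median longest transcript of 2775 bases, against 1171 bases for cytosolic ribosomal protein genes and 3381 bases for all tested genes with a length. Across the 56 genes the log2 difference between shEZH2 replicate 2 and replicate 1 had a Pearson correlation of -0.78 with log2 length. Across all 12788 tested genes with a length it was -0.55. The points share the same libraries, and genes are not independent replicates.

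Relative to the control mean, the correlation with length was 0.10 in shEZH2 replicate 1 and -0.64 in replicate 2 (56 genes each). The 28 shorter genes had medians of 0.46 in replicate 1 and 0.72 in replicate 2. The 28 longer genes had 0.60 and 0.14. Replicate 1 was thus high at all lengths, and replicate 2 mainly at short lengths. The risen genes ran from 1258 to 5095 bases.

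When the trend of counts with transcript length was removed in every library, 19 of the 56 genes rose in the shEZH2 line and 0 fell, where 9.42% of 12788 genes rose. The median was then 0.45. Of the 9 risen genes 8 were among the 19, and RPF2 was not. Added were DDX56, MRTO4, NAT10, NHP2, NOP14, NOP2, PES1, POLR1B, TSR1, WDR12 and WDR3.

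**Figure D3:**
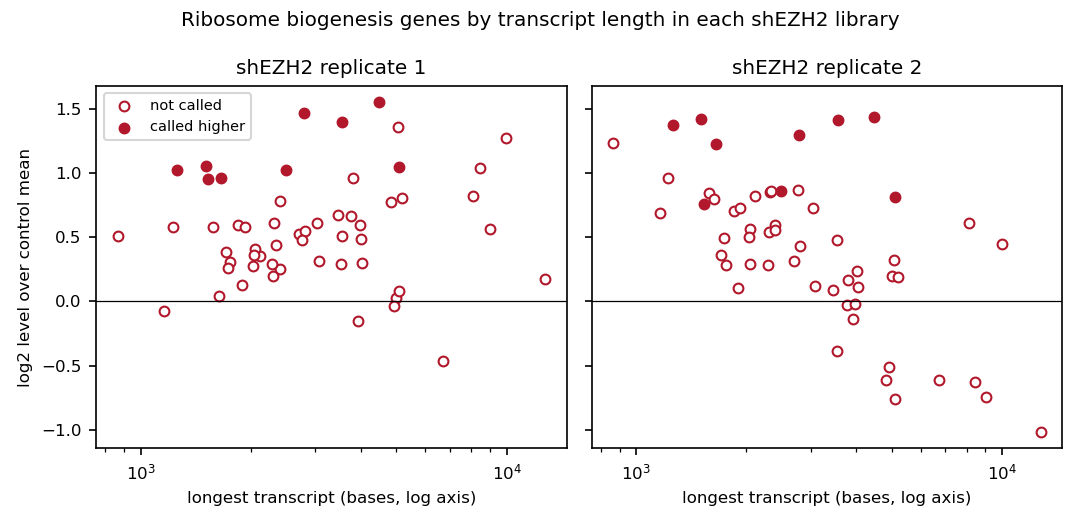
Log2 level over the control mean (y axis) against longest transcript length in bases (x axis, log scale) for the 56 genes in shEZH2 replicate 1 (left) and replicate 2 (right), with filled points for the 9 genes called higher. Replicate 1 shows little slope (r = 0.10), and in replicate 2 many long transcripts lie below 0 (r = -0.64).

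The rest of the pathway was examined in 119 further genes. Of these, 15 rose in the shEZH2 line, 0 fell and 104 did not pass the test, and 100 lay above 0 (median 0.47). At an unadjusted p under 0.05, 55 were higher and 2 lower, and DESeq2 called 41 higher and 1 lower. Across all 14192 tested genes 3.54% rose by edgeR, 1960 were higher at that unadjusted p, and DESeq2 called 7.14% higher. By role, 1 of 10 polymerase I factors, 5 of 41 small subunit factors, 4 of 43 large subunit factors, 2 of 9 snoRNP factors and 3 of 16 trimming nucleases rose. The named risen genes, chosen here because they passed the test, were POLR1D, UTP11L, WDR46, DCAF13, DDX49, LYAR, GNL2, SURF6, DDX27, ZNF622, NUFIP1, RUVBL2, EXOSC3, EXOSC4 and EXOSC5. EXOSC4, a core subunit of the RNA exosome that trims ribosomal RNA, rose by 1.48 ± 0.32, and POLR1D, a small subunit shared by RNA polymerases I and III, rose by 1.34 ± 0.22 (adjusted p = 0.0381 and 0.0197 by edgeR). LYAR, a nucleolar zinc finger protein, rose by 1.32 ± 0.19 and DCAF13, a processome subunit, by 1.19 ± 0.17 (adjusted p = 0.0118 and 0.0124 by edgeR).

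Cytosolic ribosomal protein genes and RNA polymerase III genes were set beside them. Of 79 ribosomal protein genes 7 rose, or 8.86%, against 3.54% of all tested genes, and 78 lay above 0 (median 0.74). At an unadjusted p under 0.05, 59 were higher and 0 lower, against 1960 and 1839 of all 14192 tested genes. DESeq2 called 33 higher and 0 lower, against 7.14% and 5.82% of all genes. Their median was 0.34 above the control mean in shEZH2 replicate 1 and 1.11 in replicate 2, while the 56 ribosome biogenesis genes had 0.54 and 0.49. Of 20 genes of RNA polymerase III and its factors, which make 5S ribosomal RNA, 0 passed the edgeR test (2 higher at an unadjusted p under 0.05, and 2 called higher by DESeq2), and the median was 0.15. The median of the ribosomal protein genes thus differed more between the shEZH2 replicates than that of the 56 genes, a description with no test. The near-equal medians of the 56 genes combine longer genes that were higher in replicate 1 with shorter genes that were higher in replicate 2, as given above.

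**Figure D4:**
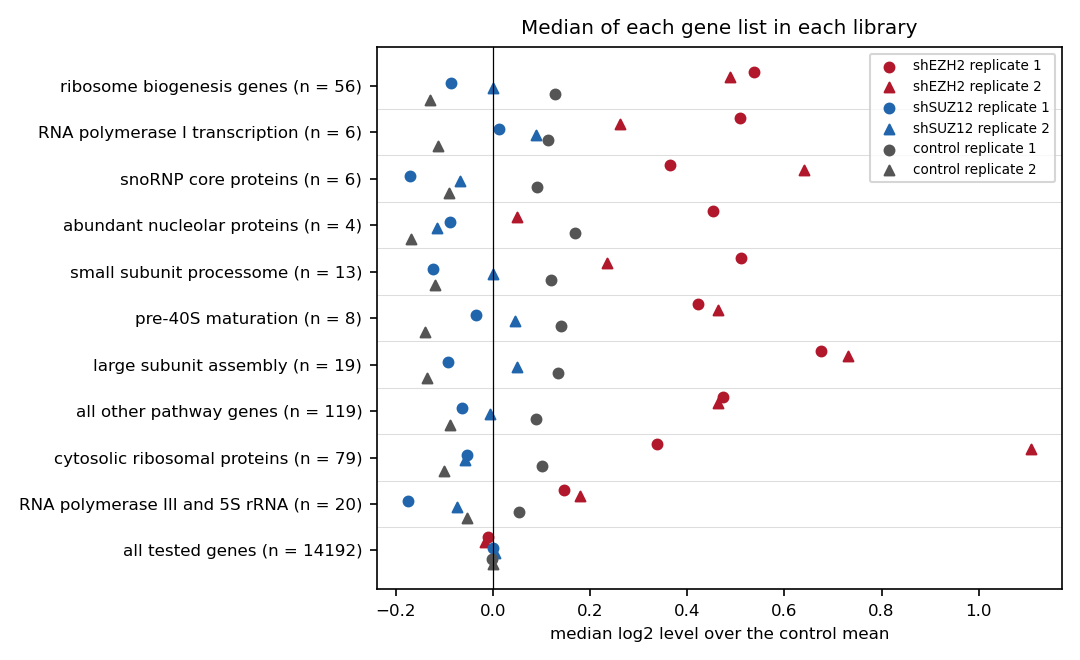
Median log2 level over the control mean (x axis) of each gene list in each library, with circles for replicate 1 and triangles for replicate 2. For the 56 genes (top line) the shEZH2 libraries stand at 0.54 and 0.49 and all others between -0.13 and 0.13, while the ribosomal protein genes stand at 0.34 and 1.11 in the shEZH2 line.

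The second comparison, of the shSUZ12 line with control, asks the same of PARP1 and SUZ12. No ribosome biogenesis gene passed the test: 0 of 56 rose and 0 fell by edgeR, where 0.719% of all tested genes rose and 0.888% fell. At an unadjusted p under 0.05, 0 were higher and 1, DDX10, was lower, and DESeq2 also called DDX10 lower. Of all 14192 tested genes 958 were higher and 899 lower at that unadjusted p, and DESeq2 called 1.5% higher and 1.78% lower. Log2 fold changes ran from -0.94 for DDX10 to 0.34 for FTSJ3, with a median of -0.05. Medians of the 6 roles ran from -0.14 for snoRNP proteins to 0.06 for RNA polymerase I transcription. Both shSUZ12 libraries lay above both control libraries for 6 of 56 genes, against 30.3% of all tested genes, and below them for 13, against 30.9%.

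The 9 genes that rose in the shEZH2 line did not pass the test here. FTSJ3 had a log2 fold change of 0.34 ± 0.17, RRP12 of 0.31 ± 0.19, NOC2L of 0.27 ± 0.18 and UTP14A of 0.14 ± 0.19. TCOF1 had 0.09 ± 0.18, RPF2 0.06 ± 0.19, EBNA1BP2 -0.05 ± 0.20, NOP16 -0.18 ± 0.22 and PPAN -0.18 ± 0.27. Of these 9, FTSJ3, NOC2L and RRP12 had both shSUZ12 libraries above both control libraries, an arrangement found for 30.3% of all tested genes. RRP9 had 44.0 and 45.2 CPM in the shSUZ12 line against 69.5 and 51.1 CPM in control (-0.43 ± 0.21, adjusted p = 0.465 by edgeR).

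All 3 groups share 1 estimate of spread, so the shEZH2 libraries bear on this test. A fit on the shSUZ12 and control libraries alone called DDX10 and RRP9 lower and FTSJ3 higher, where 10.8% of 13960 genes were lower and 9.81% higher. Without shEZH2 replicate 1 or 2 the median of the 56 genes was -0.05 in each case. The median of the 56 genes was 0.12 without control replicate 1 and -0.16 without control replicate 2. Of the 119 further pathway genes 0 passed the test by edgeR or DESeq2 (1 higher and 3 lower at an unadjusted p under 0.05), with a median of -0.02. Of the 79 ribosomal protein genes 0 passed by either tool (2 higher and 2 lower at an unadjusted p under 0.05), with a median of -0.06.

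The depleted lines were compared directly, which also tests whether their changes from control differ. Of 56 genes, 5 were lower in shSUZ12 cells than in shEZH2 cells, 0 were higher and 51 did not pass the edgeR test. Across all tested genes 0.796% were lower and 0.726% higher. At an unadjusted p under 0.05, 30 of the 56 were lower and 0 higher, and DESeq2 called 17 lower and 0 higher. Of all 14192 tested genes 1812 were lower and 1575 higher at that unadjusted p. DESeq2 called 4.98% of all genes lower and 3.64% higher. The median log2 difference, shSUZ12 minus shEZH2, was -0.55, against 0.04 over all tested genes, and 53 of 56 genes lay below 0. Both shSUZ12 libraries lay below both shEZH2 libraries for 46 of 56 genes, against 26.5% of all tested genes. The shEZH2 libraries serve in both this comparison and that with control, so the 2 results are not independent.

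NOP16 differed most, by -1.37 ± 0.23, with 67.1 and 76.2 CPM in the shSUZ12 line against 163 and 208 CPM in the shEZH2 line (adjusted p = 0.0381 by edgeR). EBNA1BP2 differed by -1.30 ± 0.21 and RRP12 by -1.18 ± 0.19 (adjusted p = 0.0346 for both by edgeR). NOC2L differed by -1.11 ± 0.18 and FTSJ3 by -1.06 ± 0.17 (adjusted p = 0.0346 and 0.0348 by edgeR). These are 4 large subunit factors and 1 pre-40S factor. Among processome genes RRP9 came nearest, at 44.0 and 45.2 CPM in the shSUZ12 line against 89.2 and 107 CPM in the shEZH2 line (-1.14 ± 0.22, adjusted p = 0.0523 by edgeR).

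Other genes with wide differences did not pass the edgeR test. PPAN had a log2 difference of -1.30 ± 0.27, NHP2 of -0.93 ± 0.25 and PES1 of -0.87 ± 0.21. TCOF1 had -0.84 ± 0.18 and UTP14A -0.80 ± 0.19. DESeq2 called PPAN, NHP2, PES1, TCOF1 and UTP14A lower, and did not call FBL, NOP56, NOP58 or DKC1. FBL had -0.57 ± 0.26, NOP56 -0.62 ± 0.19, NOP58 -0.58 ± 0.17 and DKC1 -0.45 ± 0.18. Medians of the roles ran from -0.40 for the small subunit processome and for the abundant nucleolar proteins to -0.68 for large subunit assembly. Only POLR1A, RIOK2 and RRP1B lay above 0, at 0.09 ± 0.35, 0.07 ± 0.20 and 0.11 ± 0.28.

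When that trend with length was removed, 18 of the 56 genes were lower in the shSUZ12 line, where 5.33% of 12788 genes were. Which libraries entered changed the calls. In a fit on the shSUZ12 and shEZH2 libraries alone 0 of the 56 genes were called, where 1 of all 13949 genes was. The median log2 difference of the 56 genes was -0.51 and -0.56 without shSUZ12 replicate 1 and 2. Without control replicate 1 or 2 it was -0.55. Over all tested genes the medians in those fits ran from 0.02 to 0.04. Without shEZH2 replicate 1 the median log2 difference of the 56 genes was -0.51, and without shEZH2 replicate 2 it was -0.59. Over all tested genes these fits gave medians of 0.05 and -0.01. Of the 119 further pathway genes, EXOSC5 and ISG20L2, nucleases of ribosomal RNA maturation, were lower in the shSUZ12 line, by log2 differences of -1.32 and -1.13 (adjusted p = 0.0419 and 0.0444 by edgeR), and DESeq2 called 34 lower. Of the 79 ribosomal protein genes 0 passed the edgeR test, while 71 were lower at an unadjusted p under 0.05 and DESeq2 called 38 lower (median -0.82). Of all 14192 tested genes 1812 were lower at that unadjusted p, and DESeq2 called 4.98% lower.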

How the data were processed

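The table deposited by the authors holds raw read counts for 29744 gene symbols in each of the 6 libraries. Per the labels' protocols, total RNA went into a strand-specific mRNA library kit. GRCh38, STAR, GenomeStudio 2010.1 and R 3.2.5 are listed without roles, per the submitters' processing notes. How reads were assigned to genes, and with which annotation and strand setting, is not given in the sources used here. The 4 entries that name no gene held 16.5 to 21.0% of counts and were left out. Column names spell the knockout "PAPR1" and were matched to the sample titles.

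From these counts, CPM on effective library sizes (trimmed mean of M values) and tests were computed in R 4.3.3 with edgeR 4.0.16 (quasi-likelihood, robust; genes filtered by group, 14192 tested; all 3 groups in 1 fit with 3 residual degrees of freedom; Benjamini-Hochberg adjustment over all tested genes). Standard errors come from the fold change and F statistic. Log2 levels per library use a prior count of 2. Nothing says that replicates were separate cultures, so p-values cover only the scatter of these libraries, which may be technical. An exact permutation test of 2 against 2 libraries cannot go below p = 0.333. DESeq2 1.42.0, other scaling, no filter, a fit on 2 groups, a replicate block, a length correction and leaving out each library were alternatives. Lengths and positions come from GENCODE version 29 and covered 90.1% of tested genes. The fit was tested on counts simulated with the same spread in every library, so that test does not cover replicates as unlike as the shEZH2 pair. The genes, lists and tests were chosen with earlier results of these data known. For each comparison, genes called, 9 fixed genes, and the most abundant and most extreme genes of each role were named. Any other gene was chosen after its values were seen.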

Additional observations from a re-analysis of the deposited data

Results flagged for a closer look

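For 5 genes the change from control differed between the depleted lines, by the test of the difference itself (edgeR, quasi-likelihood, shSUZ12 minus shEZH2). The log2 differences were -1.37 for NOP16, -1.30 for EBNA1BP2, -1.18 for RRP12, -1.11 for NOC2L and -1.06 for FTSJ3. In each gene both shSUZ12 libraries lay below both shEZH2 libraries. The adjusted p over the 12 alternatives, of which 1 is DESeq2 and the others edgeR, ran from 1.793e-09 to 0.4997 across the 5 genes, and each gene was called in 7 of the 12.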

How the results depend on the processing

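For the shEZH2 line against control, 9 of 56 genes and 957 of all tested genes were called. Counts were 11 and 1471 with no filter on low counts, 20 and 1889 with DESeq2, 3 and 216 in the fit on the 2 groups alone, and 19 and 2200 with the length trend removed. Leaving out 1 library gave 0 to 40 of the 56 genes and 5 to 7853 of all. For the shSUZ12 line against control, 0 of 56 and 228 of all were called. Counts were 1 and 399 with no filter, 1 and 492 with DESeq2, 3 and 2876 on the 2 groups alone, and 1 and 628 with the length trend removed. Leaving out 1 library gave 0 to 3 of the 56 genes and 10 to 3044 of all, and a median from -0.1573 to 0.1163. For shSUZ12 against shEZH2, 5 of 56 and 216 of all were called. Counts were 11 and 718 with no filter, 17 and 1223 with DESeq2, 0 and 1 on the 2 groups alone, and 18 and 1226 with the length trend removed, where the median was -0.4505. Leaving out 1 library gave 0 to 45 of the 56 genes and 0 to 7590 of all. POLR1A was -0.417 without shEZH2 replicate 2 and 0.8112 without replicate 1, against 0.09 with all libraries. SUZ12 was -0.8624 and 0.4628 in the same fits, against -0.32. The cause of these shifts was not tested. Size factors of the DESeq2 type changed no count of the 56 genes. Each of the 9 risen genes kept its direction in all 12 alternatives.

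With a replicate block, 9, 0 and 7 of the 56 genes and 1233, 328 and 368 of all genes were called in the 3 comparisons, with PPAN and RRP9 added in the last. Deviations of same-numbered libraries correlated at 0.165, 0.116 and 0.093, so the numbers were not taken to pair libraries. Depth limited no gene of the 56.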
